A study of Homo sapiens with 25 samples.

Results

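The mRNAs of 9 circadian clock genes were followed through RNA immunoprecipitation sequencing (RIP-seq) of IGF2BP1, an RNA-binding protein known to shield bound mRNAs from decay and to gather with them in cytoplasmic granules. The genes were NR1D1, NR1D2, PER1, PER2, PER3, CRY1, CRY2, CLOCK and TEF, 9 of the 63086 genes counted. All 9 were among the 8734 protein-coding genes that passed the filter on low counts. They were chosen by name, and NR1D2 led the choice because in these same libraries its response to arsenite differed between wild-type IGF2BP1 and both phosphomimetic mutants. The interactions of S181E and Y396E with treatment are therefore given without a test for every gene, and NR1D2 was tested only in the RQ mutant, whose libraries the choice did not use.

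In RIP-seq a protein is pulled from the cell lysate, and the RNA bound to it is sequenced. The cells were HCT116, a human colorectal carcinoma line, carrying Tet-OsTIR1 and knockouts of IGF2BP2 and IGF2BP3, and they expressed mCherry-IGF2BP1, with a red fluorescent tag, from a lentivirus. IGF2BP1 was wild-type, S181E or Y396E, in which glutamate replaces a serine or tyrosine to mimic its phosphorylation, or RQ, in which arginines of a disordered linker were replaced by glutamine. Each line was a sorted population, narrow in its mCherry signal, and not 1 clone, and was grown with PBS (control) or with 500 µM sodium arsenite, an oxidative stressor, for 2 h. There were 3 libraries for each line and treatment, except 2 for RQ in arsenite, from dishes plated and grown independently. The background was 1 library per treatment from parental HCT116 cells, which lacked the fusion and still had IGF2BP2 and IGF2BP3.

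In the cell-autonomous clock, CLOCK and its partner BMAL1 activate transcription from E-box elements. Their targets include the PER and CRY genes, whose proteins return to the nucleus and repress CLOCK and BMAL1, and NR1D1 and NR1D2, nuclear receptors that repress BMAL1. TEF is a leucine zipper factor that carries the rhythm to genes with D-box elements. Many of these mRNAs are short-lived, so their amount follows their transcription and decay closely.

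IGF2BP1 is known to favour mRNAs with the pentamer UGGAC, a common context of N6-methyladenosine, and the matches in NR1D2 are shown because its level in the pulldown set the choice of genes. Its canonical transcript of 5231 bases, with DNA letters taken from GENCODE on hg38, plus strand, held 3 matches. Each window below is 29 bases long, from 5′ to 3′, with the pentamer in capitals, and the letters were the same in the genome.
NR1D2 coding sequence, chr3:23962404-23962432: gcagcatctcaaTGGACagttcaaaggga
NR1D2 coding sequence, chr3:23962467-23962495: ttgtattgcaaaTGGACattgtatgaact
NR1D2 3′ UTR, chr3:23978857-23978885: catttctaatagTGGACttgattaagtag

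At 0.574 matches per kb, NR1D2 was sparser in TGGAC, searched on the transcript strand only, than the median of 1.12 per kb over the canonical transcripts of the tested genes, of which 94.8% held at least 1 match. CLOCK was just as sparse at 0.573 per kb, while PER2 held 14 matches (2.19 per kb), PER1 9 (1.92 per kb) and TEF 8 (1.83 per kb). NR1D1, the paralog of NR1D2, held 3 matches in its shorter transcript of 2630 bases (1.14 per kb), all in the coding sequence. Whether any match is methylated or bound was not measured here.

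Levels are given as CPM, a gene's count scaled to a common library size with TMM factors. The total count of an mCherry library ranged from 22246381 to 60273548, and the member counts behind a value in these libraries ranged from 67 (CRY2) to 13176 (NR1D1). The parental control library was shallow, with a total count of 1238013 against 18942497 in the parental arsenite library, so that 1 count there was worth 0.675 CPM. The epithelial marker EPCAM was measured in every group (mean 45.9 to 118 CPM over the mCherry groups), and PTPRC, a leukocyte marker, was at 0 in all libraries. HMOX1, which oxidative stress is known to induce, had a mean of 5.98 to 10.4 CPM in control and 18.3 to 24.2 CPM in arsenite groups. IGF2BP1 itself was at 0 counts in both parental libraries, and its mean level in the pulldown in control was 66.4 CPM (wild-type), 66.3 CPM (S181E), 93.0 CPM (Y396E) and 111.0 CPM (RQ), and in arsenite 40.1, 41.4, 52.1 and 80.6 CPM in the same order. A level in the pulldown cannot separate more mRNA in the cell from a larger bound share, since RNA-Seq libraries were not analysed here.

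NR1D2, on chromosome 3 from 23945286 to 23980617, came down at its highest level with the phosphomimetic mutants in control cells, and at its lowest with the same mutants in arsenite. With wild-type IGF2BP1 it was at 82.4, 84.1 and 110.3 CPM in control and at 78.0, 78.7 and 76.3 CPM in arsenite. The wild-type groups were thus close, and the control group was spread by replicate 3. With S181E it was at 157.5, 150.0 and 160.6 CPM in control and at 62.2, 65.4 and 66.1 CPM in arsenite. With Y396E it was at 160.6, 157.1 and 164.2 CPM in control and at 68.2, 70.2 and 66.5 CPM in arsenite. In both mutants every control library lay above every wild-type library, and every arsenite library lay below every wild-type library. Nothing is read from this, because these values led to the choice of NR1D2. Against wild-type in control, 26.1% (S181E) and 36.2% (Y396E) of all tested genes were apart, and in arsenite 37.9% and 62.1%.

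**Figure D1:**
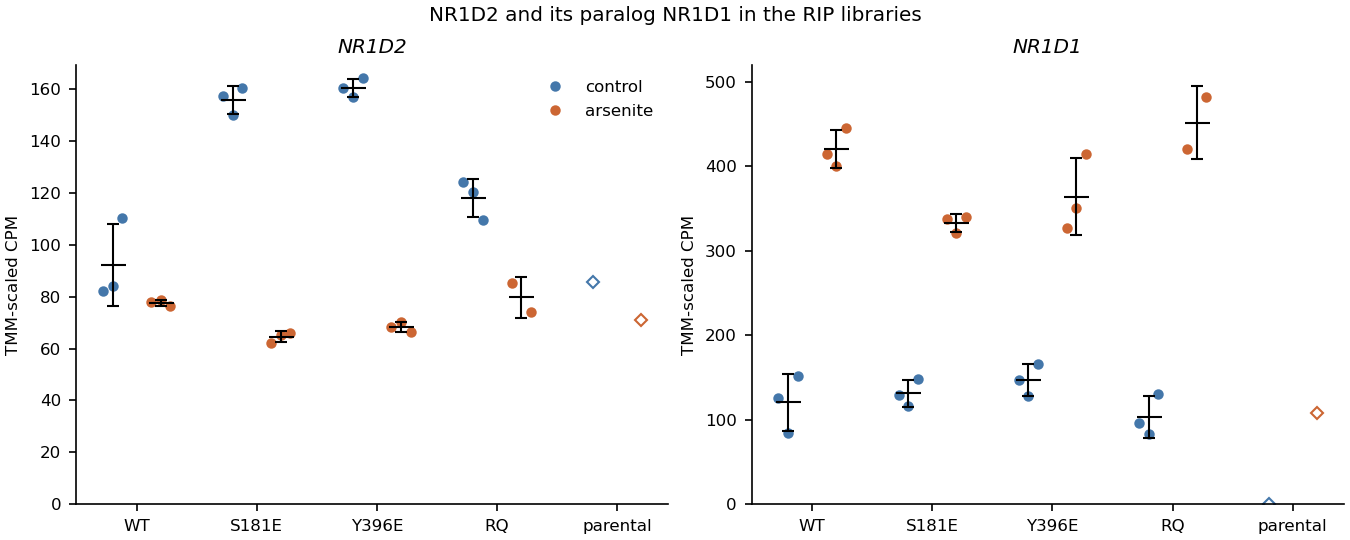
NR1D2 (left) and NR1D1 (right) in each RIP library, as TMM-scaled CPM on a linear axis from 0, by line, with control in blue and arsenite in orange. Filled points are mCherry libraries with the group mean and SD as black bars, and open diamonds are the single parental libraries; NR1D2 stands at 150.0 to 164.2 CPM in the control libraries of S181E and Y396E, and NR1D1 is higher in arsenite than in control in every line.

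The log2 fold change of NR1D2 in arsenite against control was -0.26 ± 0.10 (SE) with wild-type, -1.30 ± 0.10 with S181E and -1.23 ± 0.10 with Y396E. Without wild-type control replicate 3, the highest of its group, the wild-type value was -0.11. The interaction, the change in the mutant minus the change in wild-type on the log2 scale, was -1.04 ± 0.14 for S181E and -0.97 ± 0.14 for Y396E. Of all tested genes, 0.389% were called for the S181E interaction and 2.85% for the Y396E interaction, and nothing is read from NR1D2's place among them because these contrasts chose it. Most of the interaction lay on the control side, where NR1D2 differed from wild-type by 0.77 ± 0.10 (S181E) and 0.82 ± 0.10 (Y396E) on the log2 scale, against -0.27 ± 0.10 and -0.16 ± 0.10 in arsenite. Without that library the interactions were -1.19 and -1.12.

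The RQ mutant gave a test of NR1D2 in libraries that did not choose it. NR1D2 was at 124.2, 120.3 and 109.8 CPM in RQ control and at 85.5 and 74.3 CPM in RQ arsenite, without overlap. The RQ treatments were apart, in either direction, for 75% of all tested genes. It fell by 0.57 ± 0.11 (SE) on the log2 scale (edgeR quasi-likelihood test, adjusted p = 0.000109), and 32.3% of all tested genes were called lower in this comparison. The call held under all 16 alternatives, with log2 fold changes from -0.86 to -0.45. Among them, dropping the 20% cut left the fit unchanged and could not lose a call. The RQ interaction with treatment, which shares the wild-type libraries, was -0.31 ± 0.15 and was not tested. NR1D2 in RQ stood near the background, at 1.38-fold of the parental level in control and 1.12-fold in arsenite. The parental level was 85.7 CPM in control and 71.0 CPM in arsenite.

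Ordered by mean level, NR1D2 stood at 160.6 ± 3.55 CPM (SD) in Y396E control, 156.1 ± 5.43 in S181E control, 118.1 ± 7.45 in RQ control, 92.3 ± 15.6 in wild-type control, 79.9 ± 7.93 in RQ arsenite, 77.7 ± 1.23 in wild-type arsenite, 68.3 ± 1.85 in Y396E arsenite and 64.6 ± 2.11 in S181E arsenite. The libraries of neighbours overlapped between Y396E and S181E control, between RQ and wild-type control, between wild-type control and RQ arsenite, and between RQ and wild-type arsenite.

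NR1D1, on chromosome 17 from 40092793 to 40100589, encodes the paralogous receptor, and it rose where NR1D2 did not. With wild-type IGF2BP1 it was at 125.6, 84.5 and 151.6 CPM in control and at 415.2, 400.9 and 445.0 CPM in arsenite. With S181E it was at 129.7, 116.4 and 148.3 CPM in control and at 338.2, 320.8 and 339.9 CPM in arsenite. With Y396E it was at 147.0, 128.4 and 165.7 CPM in control and at 326.8, 351.0 and 415.1 CPM in arsenite. All arsenite libraries were above all control libraries in these lines, and likewise in RQ, with 96.5, 82.6 and 130.6 CPM in control and 421.1 and 482.5 CPM in arsenite. Treatments were apart, in either direction, for 68.1% (wild-type), 72.9% (S181E), 75.7% (Y396E) and 75% (RQ) of all tested genes.

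The log2 fold change of NR1D1 was 1.79 ± 0.17 (SE; edgeR adjusted p = 4.05e-09) with wild-type, 1.31 ± 0.17 (edgeR adjusted p = 3.67e-07) with S181E, 1.31 ± 0.17 (edgeR adjusted p = 4.22e-07) with Y396E and 2.13 ± 0.18 (edgeR adjusted p = 1.07e-09) with RQ. These calls held under every alternative tried. The interactions with S181E and with Y396E were both -0.48 ± 0.24, given without a test, and that with RQ was 0.34 ± 0.25 (edgeR adjusted p = 0.692). The exons of NR1D1 share 473 bases, 18.0% of their length, with THRA on the opposite strand, and the counting used the strand. In the parental arsenite library, which has no mCherry-IGF2BP1, NR1D1 was at 108.1 CPM, and in the parental control library it was at 0 counts.

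Among the period genes, whose proteins repress CLOCK and BMAL1 together with the cryptochromes, PER1 rose in arsenite in every line, while PER2 and PER3 were called lower in some. PER1 was at 142.3, 109.4 and 135.3 CPM in wild-type control and at 201.0, 225.1 and 205.0 CPM in wild-type arsenite. Over the other lines it ranged from 93.3 to 139.8 CPM in control and from 176.0 to 224.1 CPM in arsenite, so that no control library reached any arsenite library. Within a line, treatments were apart for 68.1 to 75.7% of all tested genes. The log2 fold changes were 0.69 ± 0.11 with wild-type (edgeR adjusted p = 4.55e-06), 0.88 ± 0.11 with S181E (edgeR adjusted p = 1.60e-07), 0.82 ± 0.11 with Y396E (edgeR adjusted p = 4.86e-07) and 0.77 ± 0.12 with RQ (edgeR adjusted p = 4.66e-06). In the single parental libraries, which lack the fusion, PER1 was at 27.0 CPM in control and 82.8 CPM in arsenite.

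PER2 was a lower-abundance mRNA with the opposite direction. It was at 43.6, 33.7 and 48.0 CPM in S181E control and at 30.4, 28.6 and 32.8 CPM in S181E arsenite, and at 42.1, 35.1 and 46.1 CPM in Y396E control and at 28.1, 25.1 and 29.7 CPM in Y396E arsenite. PER2 fell by 0.48 ± 0.19 with S181E (edgeR adjusted p = 0.0269) and by 0.57 ± 0.19 with Y396E (edgeR adjusted p = 0.00954) on the log2 scale. With wild-type the value was -0.39 ± 0.19 (edgeR adjusted p = 0.0699) and with RQ -0.26 ± 0.21 (edgeR adjusted p = 0.271), in groups that overlapped. The wild-type value passed without wild-type control replicate 2 (-0.56, edgeR adjusted p = 0.0115) and without wild-type arsenite replicate 3 (-0.49, 0.0456). The S181E call was lost under 6 of 17 alternatives, among them without S181E control replicate 1 (-0.45, edgeR adjusted p = 0.0693) or replicate 3 (-0.36, 0.126), and without S181E arsenite replicate 1 (-0.48, 0.0586) or replicate 2 (-0.42, 0.0889).

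PER3 was called lower with S181E alone. It was at 34.2, 23.8 and 41.2 CPM in S181E control and at 22.9, 23.9 and 25.5 CPM in S181E arsenite, and these groups overlapped. The log2 fold change was -0.48 ± 0.18 (edgeR adjusted p = 0.0181), and it was -0.29 (edgeR adjusted p = 0.169) without S181E control replicate 3, the highest library, and -0.45 (edgeR adjusted p = 0.0562) without S181E arsenite replicate 1. In the other lines the values were -0.17 ± 0.18 (wild-type, edgeR adjusted p = 0.401), -0.39 ± 0.17 (Y396E, edgeR adjusted p = 0.0534) and -0.10 ± 0.20 (RQ, edgeR adjusted p = 0.678). The Y396E value passed without Y396E control replicate 2 (-0.49, edgeR adjusted p = 0.0303) and without Y396E arsenite replicate 3 (-0.49, 0.0345). Whether S181E differs from the other lines in this was not tested. The exons of PER3 share 1244 bases, 19.1% of their length, with UTS2 and a noncoding gene on the opposite strand.

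The cryptochrome CRY1 rose in arsenite with S181E and RQ, at a low level near or below that of the parental libraries. It was at 14.1, 14.6 and 18.5 CPM in S181E control and at 26.3, 27.6 and 28.3 CPM in S181E arsenite, a log2 fold change of 0.77 ± 0.27 (edgeR adjusted p = 0.0155). It was at 19.6, 19.8 and 5.9 CPM in RQ control and at 28.2 and 28.6 CPM in RQ arsenite, a log2 fold change of 0.89 ± 0.30 (edgeR adjusted p = 0.0120). RQ control replicate 3, with 88 counts, stood apart as the lowest, and without it the value was 0.52 (edgeR adjusted p = 0.0293). The values with wild-type (0.42 ± 0.27, edgeR adjusted p = 0.176) and Y396E (0.55 ± 0.27, edgeR adjusted p = 0.0751) did not pass. Without S181E control replicate 1 the S181E value was 0.70 (edgeR adjusted p = 0.0586), and with scaling taken from the 1532 genes not enriched over the parental libraries it was 0.39 (0.176), while without RQ arsenite replicate 2 the RQ value was 0.88 (0.0525).

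CRY2, the other cryptochrome, was the mRNA with the lowest counts, from 67 to 634 per mCherry library. It was at 15.3, 9.0 and 5.9 CPM in wild-type control and at 15.1, 14.9 and 14.2 CPM in wild-type arsenite, and no line passed the test (log2 fold changes from 0.01 with S181E to 0.51 ± 0.24 with wild-type, edgeR adjusted p = 0.0589 for the latter). The wild-type value was 0.98 (edgeR adjusted p = 0.000524) without wild-type control replicate 1, the highest of its group, and 0.25 (0.315) without replicate 3, the lowest.

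CLOCK, the transcription factor at the head of the loop, fell in arsenite in every line. It was at 311.5, 268.6 and 358.2 CPM in wild-type control and at 221.6, 204.8 and 226.8 CPM in wild-type arsenite, a log2 fold change of -0.53 ± 0.14 (edgeR adjusted p = 0.00187). With S181E it was at 301.3, 268.0 and 359.4 CPM in control and at 177.1, 146.1 and 178.1 CPM in arsenite, a log2 fold change of -0.92 ± 0.14 (edgeR adjusted p = 4.76e-06). With Y396E it was at 234.1, 202.8 and 263.9 CPM in control and at 128.6, 116.3 and 130.3 CPM in arsenite, a log2 fold change of -0.90 ± 0.14 (edgeR adjusted p = 7.00e-06). Treatments did not overlap in these lines, nor did they for 68.1% (wild-type), 72.9% (S181E) and 75.7% (Y396E) of all tested genes. With RQ, at 279.9, 248.8 and 362.0 CPM in control and 164.0 and 137.1 CPM in arsenite, the log2 fold change was -0.98 ± 0.16 (edgeR adjusted p = 1.30e-05). The single parental libraries, without the fusion, held CLOCK at 73.6 CPM in control and 53.0 CPM in arsenite.

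TEF, the D-box factor, passed in no line, with log2 fold changes from -0.03 ± 0.20 with Y396E to 0.38 ± 0.20 with wild-type (edgeR adjusted p = 0.907 and 0.0996). Its wild-type control libraries were at 10.8, 22.0 and 19.5 CPM and its wild-type arsenite libraries at 23.7, 20.9 and 23.6 CPM, which overlapped. The wild-type value was 0.12 (edgeR adjusted p = 0.563) without wild-type control replicate 1, the lowest of its group, and 0.59 (0.0209) without replicate 2, the highest.

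**Figure D2:**
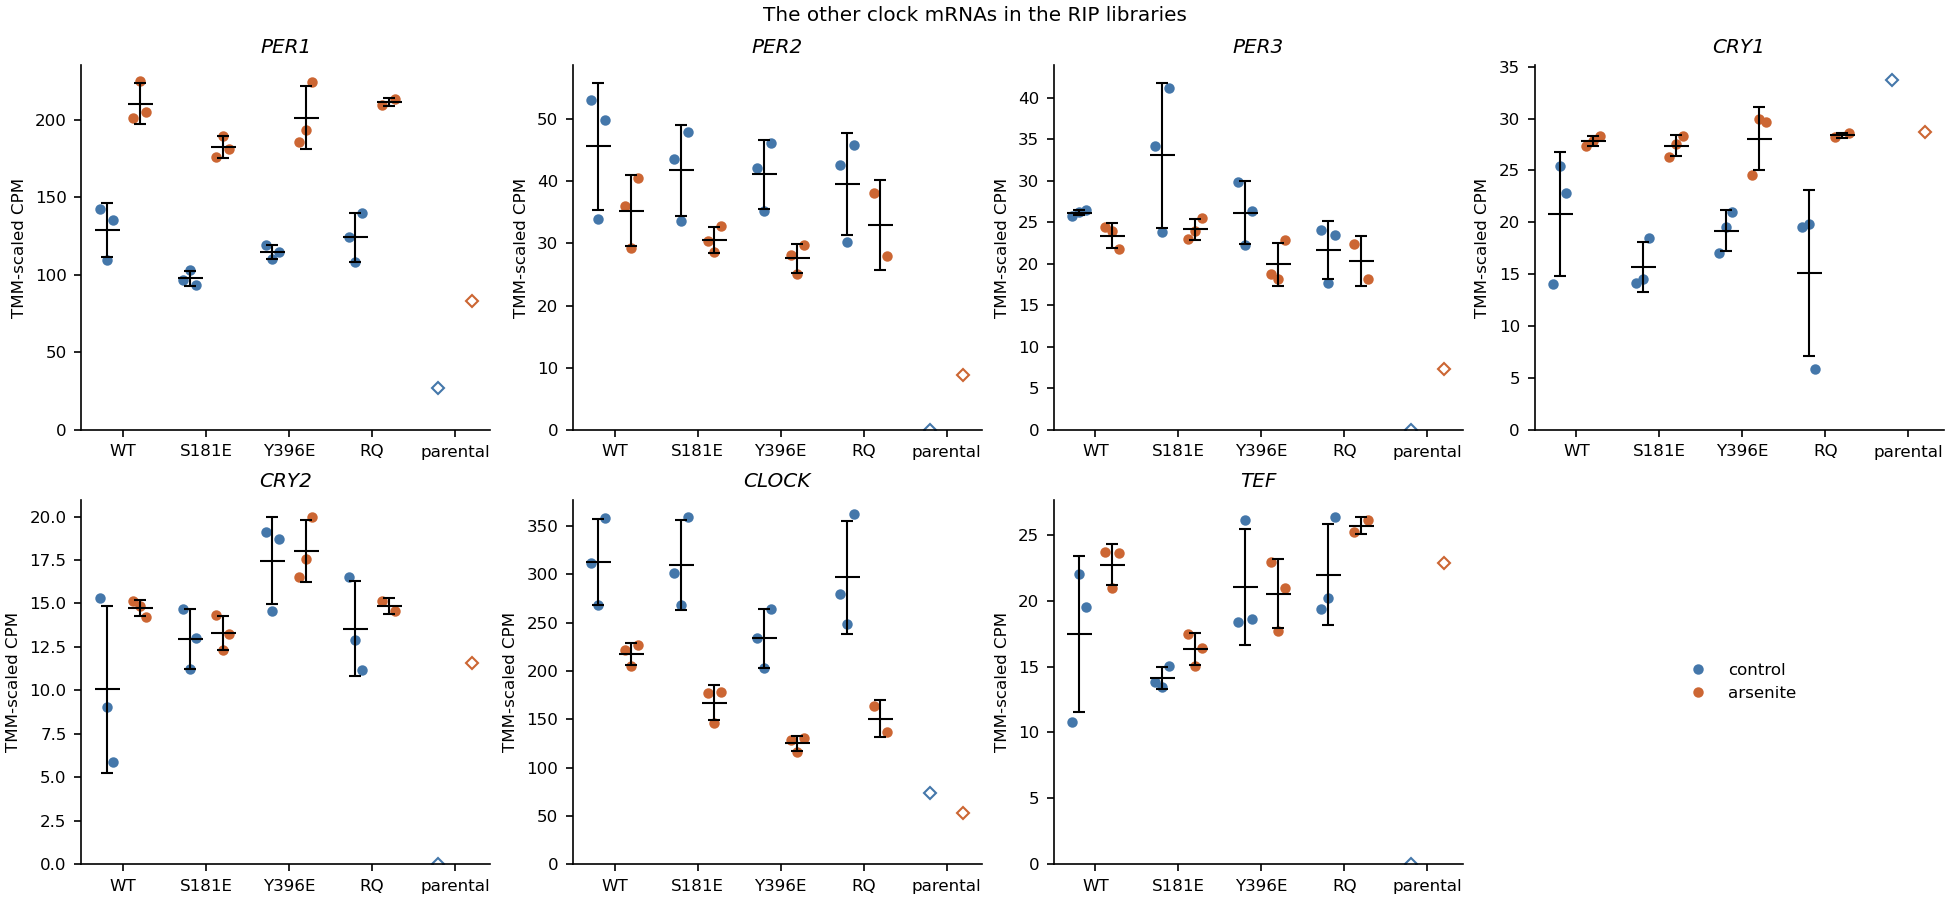
The other clock mRNAs in each RIP library, 1 panel per gene, as TMM-scaled CPM on a linear axis from 0, by line, with control in blue and arsenite in orange. Points are libraries, black bars the group mean and SD, and open diamonds the single parental libraries; CLOCK is lower and PER1 higher in arsenite in every line, and the parental libraries lie within or above the range of CRY1.

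Counted over the lines, 1 of 8 tested members was called lower and 2 higher with wild-type, where 31.8% of all tested genes were lower and 35.4% higher. With S181E 3 of 8 were lower and 3 higher (34.6% and 33.3% of all genes), and with Y396E 2 of 8 were lower and 2 higher (33.8% and 31.3%). With RQ, where NR1D2 counts too, 2 of 9 were lower and 3 higher (32.3% and 32.4%). The members' shares lay near those of all genes or below them. The median log2 fold change of the 9 members was 0.38 with wild-type, 0.01 with S181E, -0.03 with Y396E and 0.12 with RQ, against 0.03, -0.003, -0.02 and -0.004 over all tested genes.

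**Figure D3:**
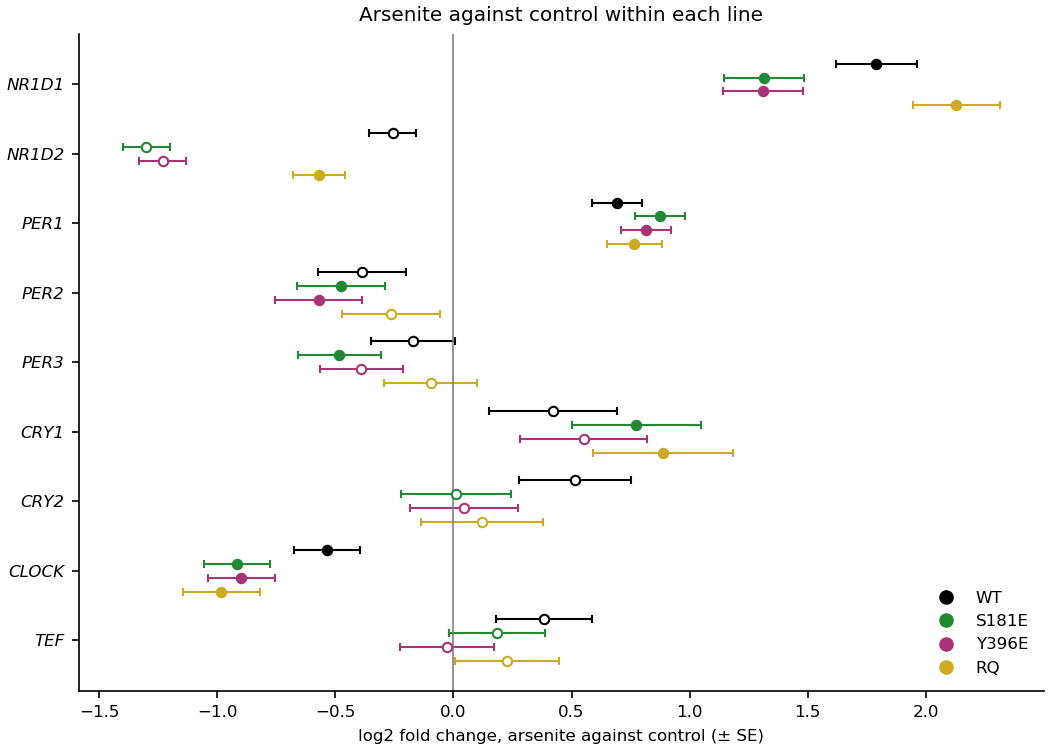
Log2 fold change of each clock mRNA in arsenite against control (horizontal axis), with its SE as a bar, by line in colour. Filled points passed the test and open points did not or, for NR1D2 in wild-type, S181E and Y396E, were not tested; NR1D1 and PER1 lie right of 0 and CLOCK left of 0 in all lines, and NR1D2 with S181E (-1.30) and Y396E (-1.23) lies far left of its wild-type value (-0.26).

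Mutant and wild-type IGF2BP1 were compared within each treatment to ask which mRNAs the mutants bring down more or less. All these comparisons share the wild-type libraries of their treatment. In control cells, 1 of 8 tested members was called with S181E (20.8% of all tested genes), 2 with Y396E (28.9%) and none with RQ (6.34%), where no tested member had an unadjusted p under 0.05. PER1 was at 96.6, 103.1 and 93.3 CPM with S181E, each below the wild-type libraries at 109.4 to 142.3 CPM, and it was lower by a log2 fold change of -0.39 ± 0.11 (edgeR adjusted p = 0.0110). These 2 groups were apart for 26.1% of all tested genes. Without wild-type control replicate 1, the highest, the value was -0.31 (edgeR adjusted p = 0.0602), and scaled by total counts only it was -0.22 (0.0903). Without the same library, CRY2 passed with S181E (0.81, edgeR adjusted p = 0.0122) and with RQ (0.87, 0.0200), and TEF with S181E (-0.54, 0.0385). PER3 passed with S181E without S181E control replicate 2 (0.54, edgeR adjusted p = 0.0262).

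CLOCK and CRY2 were called with Y396E in control. CLOCK had a log2 fold change of -0.41 ± 0.14 (edgeR adjusted p = 0.0327), in groups of 202.8 to 263.9 and 268.6 to 358.2 CPM that did not overlap. The Y396E and wild-type control groups were apart for 36.2% of all tested genes. CRY2 was at 19.1, 14.6 and 18.7 CPM with Y396E against 15.3, 9.0 and 5.9 CPM with wild-type, which overlapped, a log2 fold change of 0.79 ± 0.24 (edgeR adjusted p = 0.0155). The CLOCK call was lost under 8 of 17 alternatives, with -0.40 (edgeR adjusted p = 0.0626) without wild-type replicate 1, -0.30 (0.151) without wild-type replicate 3, -0.42 (0.0645) without Y396E replicate 1, -0.32 (0.142) without Y396E replicate 2 and -0.13 (0.333) by total counts. The CRY2 call was lost under 7 of 16, with 0.70 (edgeR adjusted p = 0.0517) without wild-type replicate 2, 0.52 (0.0783) without wild-type replicate 3, 0.70 (0.0608) without Y396E replicate 1 and 0.73 (0.0513) without Y396E replicate 3. Without wild-type replicate 1, the highest of its group, the CRY2 value was 1.25 (edgeR adjusted p = 0.000253). NR1D1, at 0.30 with Y396E in control, passed without wild-type replicate 3 (0.49, edgeR adjusted p = 0.0406).

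In arsenite, CLOCK with Y396E was the member called: it was at 116.3 to 130.3 CPM against 204.8 to 226.8 CPM with wild-type, a log2 fold change of -0.77 ± 0.14 (edgeR adjusted p = 0.000232). This call held under all 17 alternatives. That made 1 of 8 tested members with Y396E (32.5% of all tested genes), and none with S181E (7.53%) or RQ (0.504%). At an unadjusted p under 0.05, CLOCK (-0.39 ± 0.14) and TEF (-0.48 ± 0.20) with S181E and CLOCK with RQ (-0.52 ± 0.16) would have counted, with edgeR adjusted p of 0.103, 0.171 and 0.200. In arsenite, S181E and wild-type libraries of the same replicate number deviated together, and with the replicate number as a block CLOCK (-0.39, edgeR adjusted p = 0.00096) and NR1D1 (-0.34, 0.0458) were called with S181E. The share of all tested genes called with the block was not counted, so nothing is read from these calls. For the 8 tested members, the RQ interaction gave no call (0.0687% of all tested genes); CLOCK had the only unadjusted p under 0.05, at 0.0443 (-0.45 ± 0.21, edgeR adjusted p = 0.497), and DESeq2's Wald test called none either.

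**Figure D4:**
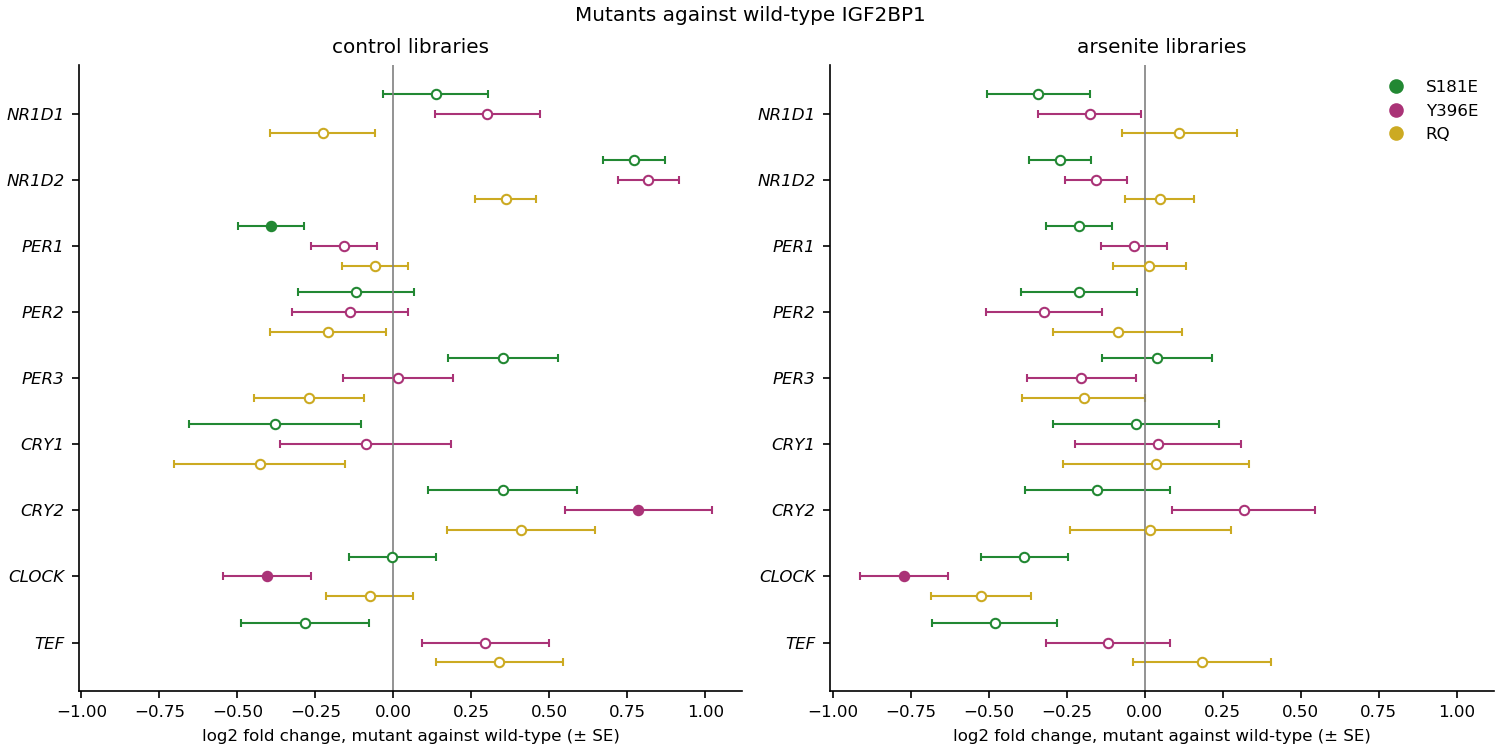
Log2 fold change of each clock mRNA with a mutant against wild-type IGF2BP1, with its SE as a bar, in control (left) and arsenite (right) libraries, by mutant in colour. Filled points passed the test and open points did not or, for NR1D2, were not tested; NR1D2 stands at 0.77 and 0.82 with S181E and Y396E in control, and CLOCK with Y396E at -0.77 in arsenite.

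The interactions of the other members with S181E and Y396E, given without a test, were smaller than those of NR1D2. Nothing is read from this, because these contrasts chose NR1D2. Those of the other members ranged from -0.50 ± 0.33 (CRY2) to 0.35 ± 0.38 (CRY1) for S181E and from -0.48 ± 0.24 (NR1D1) to 0.13 ± 0.38 (CRY1) for Y396E.

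To ask how far each mRNA stood above RNA that comes down without the fusion, the mean level was divided by the parental level in the same treatment. In wild-type control, 7 of the 9 members were at least 4-fold above it when a parental count of 0 was set to 3, as were 47.7% of all tested genes. NR1D1, PER2, PER3, TEF and CRY2 were at 0 counts in the parental control library, as were 40.9% of the tested genes. Against 3 counts there (2.02 CPM) their wild-type levels were 59.5-fold, 22.5-fold, 12.9-fold, 8.62-fold and 4.97-fold higher. These ratios are not taken as lower limits. Divided by the parental arsenite level, the same levels were at 1.11-fold, 5.15-fold, 3.58-fold, 0.763-fold and 0.868-fold. Over the parental control level, PER1 was at 4.78-fold (95% interval 3.51 to 6.69) and CLOCK at 4.25-fold (3.52 to 5.18). Divided by the parental arsenite level, these wild-type control levels were at 1.56-fold (PER1) and 5.90-fold (CLOCK). The intervals are exact Poisson intervals of the parental count. They take its reads as independent, which was not tested, and leave out the spread between libraries. No member held a count between 0 and 40 (PER1) in the parental control library.

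NR1D2 and CRY1 were the members whose wild-type levels lay near or below the background in both treatments. In control, NR1D2 stood at 1.08-fold (0.905 to 1.29) of the parental level with wild-type, at 1.38-fold (1.16 to 1.65) with RQ, at 1.82-fold (1.53 to 2.18) with S181E and at 1.87-fold (1.57 to 2.25) with Y396E. In arsenite it was at 1.09-fold (1.04 to 1.15) with wild-type, 1.12-fold (1.07 to 1.18) with RQ, 0.909-fold (0.866 to 0.955) with S181E and 0.961-fold (0.916 to 1.01) with Y396E. The parental count behind the control ratios was 127. CRY1 was at 0.615-fold (0.467 to 0.829) of the parental control level and 0.969-fold (0.898 to 1.05) of the parental arsenite level with wild-type.

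In wild-type arsenite, against the deeper parental library, 1 of the 9 members was at least 4-fold above the background, as were 9.18% of all tested genes. CLOCK stood at 4.11-fold (3.89 to 4.35), PER2 at 3.97-fold (3.47 to 4.58), NR1D1 at 3.89-fold (3.74 to 4.04), PER3 at 3.20-fold (2.75 to 3.74) and PER1 at 2.54-fold (2.43 to 2.66). CRY2 (1.27-fold, 1.13 to 1.44) and TEF (0.993-fold, 0.912 to 1.08) lay near it. With Y396E in arsenite CLOCK was at 2.36-fold (2.23 to 2.50). Set against the parental arsenite library, 2 members of the wild-type control group would be at least 4-fold above the background rather than 7.

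**Figure D5:**
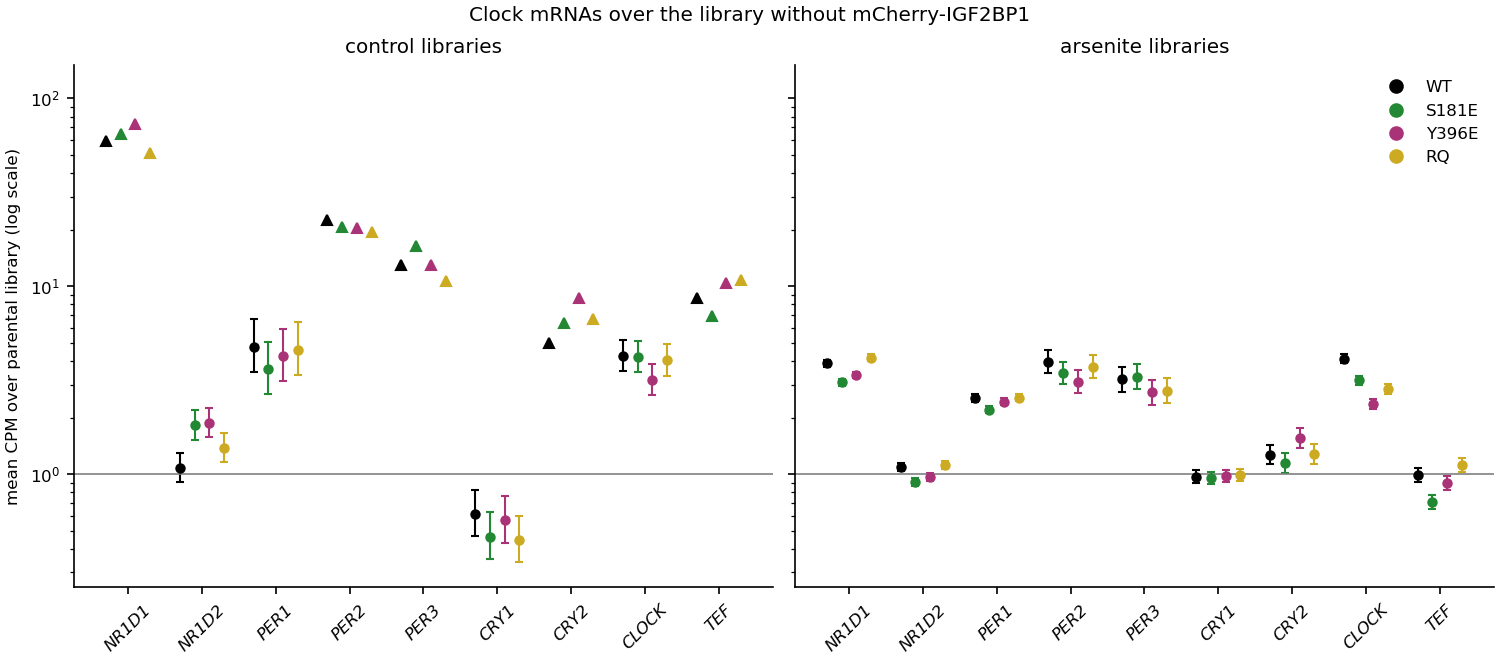
Ratio of the group mean CPM to the parental CPM for each clock mRNA within a treatment, on a log axis, in control (left) and arsenite (right), by line in colour. Circles carry the 95% Poisson interval of the parental count, and the grey line marks a ratio of 1. Triangles are ratios to a floor of 3 counts where the parental count was 0, and are not taken as lower limits. In control NR1D2 is at 1.08 with wild-type and at 1.82 and 1.87 with S181E and Y396E, while CRY1 lies below 1 in every line.

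Per kb of exon, the wild-type control level was highest for NR1D1 (45.8 ± 12.9 CPM per kb, SD), followed by CLOCK (28.2 ± 4.03), PER1 (23.8 ± 3.20) and NR1D2 (17.6 ± 2.99). CRY1 (6.95 ± 2.00) and PER2 (6.92 ± 1.55) came next and did not differ beyond their spread, and PER3 (4.01 ± 0.05), TEF (3.76 ± 1.27) and CRY2 (2.31 ± 1.10) were lowest.

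The wider clock was followed through 27 further genes, of which 18 passed the filter. Among those that did not pass were BMAL1, RORA, RORB, BHLHE41, DBP, HLF, CIART and PPARGC1A; BMAL1, the partner of CLOCK, had group means from 7.13 to 10.3 CPM, below the 60.1 and 13.6 CPM of the parental libraries. In arsenite against control, 4 of the 18 were called lower and 8 higher with wild-type, 6 and 7 with S181E, 7 and 6 with Y396E, and 4 and 7 with RQ, where 31.8 to 34.6% of all tested genes were lower and 31.3 to 35.4% higher.

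BMAL2, a paralog of BMAL1, and BHLHE40, a repressor at E-box elements, were the most reduced of this list with wild-type. BMAL2 had log2 fold changes of -1.41 ± 0.15 with wild-type, -1.88 ± 0.15 with S181E, -1.71 ± 0.15 with Y396E and -1.71 ± 0.17 with RQ. BHLHE40 had -1.54 ± 0.16, -1.16 ± 0.16, -1.37 ± 0.16 and -1.23 ± 0.18 in the same order. NONO, an RNA-binding partner of PER proteins, had 1.66 ± 0.09, 1.56 ± 0.09, 1.41 ± 0.09 and 1.76 ± 0.10. These 3 genes were called in all lines, with edgeR adjusted p at or below 2.41e-06.

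MYBBP1A, a nucleolar corepressor, had log2 fold changes of 1.23 ± 0.18 with wild-type, 1.64 ± 0.18 with S181E, 2.04 ± 0.18 with Y396E and 1.87 ± 0.19 with RQ. TIMELESS, a replication fork protein, had 1.01 ± 0.16, 0.93 ± 0.16, 1.09 ± 0.16 and 1.03 ± 0.17, and USP2, a deubiquitinase, had 0.91 ± 0.25, 1.06 ± 0.25, 0.63 ± 0.25 and 1.25 ± 0.28. GSK3B, a clock kinase, had -0.54 ± 0.13, -0.84 ± 0.13, -0.96 ± 0.13 and -0.74 ± 0.14. All were called in every line.

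Against wild-type in control, 3 of the 18 were called higher and 1 lower with S181E, where 20.8% of all tested genes were called. With Y396E 2 were higher (28.9% of all genes called) and with RQ 1 was lower (6.34%). Among them, the level in the S181E pulldown was higher for BMAL2 (log2 fold change 0.58 ± 0.14, edgeR adjusted p = 0.00547) and NOCT (0.34 ± 0.12, 0.0395) and lower for BHLHE40 (-0.73 ± 0.15, 0.00176). In the Y396E pulldown NOCT (0.33 ± 0.12, edgeR adjusted p = 0.0382) and CSNK1A1 (0.27 ± 0.09, 0.0253) were higher, and in the RQ pulldown MYBBP1A was lower (-0.64 ± 0.18, 0.0326). In arsenite, 1 of the 18 was called with S181E (7.53% of all tested genes), 3 with Y396E (32.5%) and none with RQ (0.504%). NOCT, a rhythmic phosphatase, was higher with S181E (0.48 ± 0.12, edgeR adjusted p = 0.00980), and NPAS2 (-0.55 ± 0.15, 0.00828), SIRT1 (-0.54 ± 0.17, 0.0168) and GSK3B (-0.53 ± 0.13, 0.00307) were lower with Y396E.

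The genes whose level followed NR1D2 most closely over the 23 mCherry libraries were PRKACB (Pearson r = 0.940 of log2(CPM + 1)), SINHCAF (0.937), BTBD3 (0.934), IGF2BP3 (0.931) and KLHL5 (0.921), among 8733 genes compared. IGF2BP3 is a knocked-out paralog of the bait whose mRNA was still counted. Of the members, CLOCK (r = 0.664), PER2 (0.583) and PER3 (0.515) ran with NR1D2, and PER1 (-0.858), NR1D1 (-0.718) and CRY1 (-0.571) ran against it. TEF (-0.164) and CRY2 (-0.051) were weakly related. These values describe 8 groups that share libraries, scaling and the split between control and arsenite.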

How the data were processed

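RIP-seq libraries of mCherry-IGF2BP1 were made with RFP-Trap beads and rRNA depletion, and sequenced as single reads. The authors aligned reads to hg38 with STAR 2.7.11b, and per the file headers counted them on exons of GENCODE genes with featureCounts 2.0.6, reverse-stranded; reads mapping to several places or genes were left out. The values the authors deposited are these raw counts, not normalized. Symbols came from another GENCODE release by identifier.

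Scaling and tests used edgeR 4.0.16 in R 4.3.3, with limma 3.58.1 loaded and DESeq2 1.42.0 as an alternative, and motif matches and plots with pandas 2.3.3 and matplotlib 3.10.9 (Python 3.11.15). The tests covered the 8734 protein-coding genes above 10 CPM in 11.5 or more of the 23 mCherry libraries. A model with 8 groups was fitted to these 23 libraries by edgeR's quasi-likelihood method with Benjamini-Hochberg adjustment over all tested genes, and a call required an adjusted p below 0.05 and a change above 20%. SE is the log2 fold change divided by the root of its F statistic. Printed CPM used TMM factors over all 25 libraries. A parental count of 0 was replaced by a floor of 3 counts. The intervals take parental reads as independent, and neither they nor the floor cover the spread between libraries.

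The total count per library ranged from 1238013 (parental control) to 60273548, and at the deeper mCherry libraries precision was limited by the spread between libraries. Groups came from the labels. The members, the wider clock list and the tests were chosen with earlier results of these data known. Named genes were the 9 members, genes of the wider list called in a comparison (at most 6 each by size; a gene named for 1 line is given for all), the 5 genes most like NR1D2, exon-sharing neighbours and the bait; some genes of the wider list are counted but not reported by name. RNA-Seq data were not analysed here. The procedure was tested on simulated data with known changes. Same-numbered libraries were checked for pairing: their deviations from group means correlated at 0.289 to 0.400 for S181E and wild-type in arsenite, the only comparison taken as paired, and this correlation is the source of the pairing. Alternatives covered scaling, filters, biotypes, tests, the samples fitted, the replicate block and each library left out; leaving out libraries for members that were not called was added after the data were seen.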

Additional observations from a re-analysis of the deposited data

Results flagged for a closer look

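The response of NR1D2 to arsenite differed between wild-type IGF2BP1 and the phosphomimetic mutants, with a log2 interaction of -1.04 for S181E and -0.97 for Y396E. These values led to the choice of the clock genes, so they are given as a description and were not tested again. No group held 4 or more libraries, so single libraries were not screened for standing apart.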

How the results depend on the processing

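Of 22 calls of single members, 15 held under every alternative tried, 7 were lost under at least 1 and none turned in direction. The alternative that dropped the 20% cut used the main fit, so no call could be lost under it. Calls in arsenite against control, summed over the lines, were 18 and lay between 16 and 21 under all alternatives, and between 16 and 21 with single libraries left out. The NR1D2 call with RQ held throughout, from -0.68 to -0.47 with single libraries left out. The 3 calls against wild-type in control became 1 over all biotypes, 0 by glmTreat and 0 in models fitted to the compared groups alone, and 1 to 4 with single libraries left out, with 1 without Y396E control replicate 1; by total counts 4 members were called higher and none lower. The single call in arsenite became 2 when TMM was taken from the 1532 genes not enriched over the parental libraries, 2 by DESeq2's Wald test, 5 with the replicate block and 6 in models of the compared groups alone, and stayed at 1 with single libraries left out. With the replicate block, the other calls in arsenite against control rose to 21 and those in control to 4. The share of all tested genes called was not counted with the block or in the models of the compared groups alone. No comparison but S181E against wild-type in arsenite passed the pairing check, which required at least 3 pairs. RQ against wild-type in arsenite had 2 pairs, at r = 0.148 and 0.216. With the block, CLOCK was called there too (-0.45, edgeR adjusted p = 0.00578). The RQ interaction had 0 calls under every alternative. The 7 members at least 4-fold over the parental library in wild-type control became 2 against the parental arsenite library and 3 with total counts, and the 1 in arsenite became 0 with total counts. Scaling by those 1532 genes moved the median of all genes in arsenite against control to between -0.42 and -0.28 (log2), and total counts moved it from 0.05 to 0.22 (S181E) and 0.32 (Y396E) against wild-type in control. The causes were not tested. In the parental control library 3 counts equal 2.02 CPM, and 40.9% of the tested genes were at 0 counts. NR1D1 was among these, and stood at 108.1 CPM in the parental arsenite library. Whether depth or another property of the parental control library limits the ratios over it was not tested.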
